A study of Mus musculus with 8 samples.

Results

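Gata2, Gata3, Pax2, Pax8, Emx1, Emx2, Lhx1, Grhl2 and Elf5 are transcription factors that establish or maintain the collecting duct lineage of the kidney. They were chosen by name, as 9 of the 55291 gene symbols measured in microdissected outer medullary collecting ducts. RNA of 8 C57BL/6J mice (an inbred laboratory strain with no allele or agent named beside the diet) was sequenced, 4 fed normal salt (0.3%) and 4 fed high salt (3%) for 3 days, with 1 library per mouse. Each library pooled ducts of 1 mouse that had been freed with liberase, a collagenase blend, and its depth lay between 64.8 and 94.1 M estimated counts. Libraries are named here by the diet and number in the column names, where normal salt has 1, 2, 3 and 6 and high salt has 2, 3, 4 and 6; these do not match the numbers of the sample titles. All 9 genes had at least 1 CPM (counts scaled to a library total of 1 M) in at least 4 libraries and were tested.

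The collecting duct grows from the nephric duct and its outgrowth, the ureteric bud, whereas the rest of the nephron comes from mesenchyme. In that duct PAX2 and PAX8, paired-domain factors with overlapping roles, act upstream of GATA3, a zinc finger factor, and of LHX1, a LIM homeodomain factor, and EMX2, a homeodomain factor, is needed for the bud to induce the mesenchyme. In the adult duct GATA2 is known for maintaining the water channel AQP2, GRHL2 for tight junctions, and ELF5, an ETS factor, for expression in principal cells, the cells that take up sodium and water.

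The dissected segment carried the markers of its 2 cell types. Principal cell markers summed to 20294 to 26219 TPM under normal salt and 28916 to 35004 TPM under high salt, and intercalated cell markers to 6186 to 8270 and 6167 to 7360 TPM, where TPM (transcripts scaled by length to a total of 1 M) allow levels of different genes to be compared. All 8 principal cell and all 8 intercalated cell markers had a mean of at least 1 TPM. The principal cell sums did not overlap between the diets, and Aqp2 alone had means of 11810 and 18167 TPM. By limma over all genes 0 of either set passed. By mean log2(CPM + 1) 5 principal cell markers were higher under high salt and 3 lower (3 higher at an unadjusted limma p under 0.05). Of the intercalated cell markers 2 were higher and 6 lower (2 lower at that p). Among all genes tested 5.95% were higher and 4.37% lower at that p, and for 6.40% the CPM of the diets did not overlap. Thick ascending limb markers, from the neighbouring segment, had all 10 members at a mean of at least 1 TPM. They summed to 424 to 1141 TPM under normal salt and 131 to 1604 TPM under high salt. Of these, Kcnj10 stayed at 56.0 to 82.6 TPM over the 8 libraries, where Umod ran from 22.2 to 1066 TPM. In high-salt library 2 Kcnj10 had 66.9 TPM and Umod 30.4 TPM, so Kcnj10 weighs most in low sums. Because these are bulk samples, fewer cells of a type and less RNA per cell cannot be told apart.

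Start sites of 8 of the 9 genes were found in RefSeq on GRCm38.p6 (mm10), with 12 windows of 250 bases before a start. The pair CG, whose dense runs mark the promoters known as CpG islands, occurred a median of 21 times in these windows and 6 times in the 32851 windows of all genes. At least 19 CG, a bound set after the counts were seen, were found in 8 of the 12 windows and in 19.7% of all windows. Gata2, Gata3, Pax2, Emx1, Emx2 and Lhx1 had such a window, while Pax8 had 6 CG and the pair of Elf5 windows had 2 and 8. To show this contrast, the windows before the upstream start of Gata2 (chr6:88193641-88193890, plus strand, 22 CG), before Lhx1 (chr11:84525535-84525784, minus strand, 26 CG) and before Pax8 (chr2:24475600-24475849, minus strand, 6 CG) are printed 5′ to 3′ with each CG in capitals.
Gata2: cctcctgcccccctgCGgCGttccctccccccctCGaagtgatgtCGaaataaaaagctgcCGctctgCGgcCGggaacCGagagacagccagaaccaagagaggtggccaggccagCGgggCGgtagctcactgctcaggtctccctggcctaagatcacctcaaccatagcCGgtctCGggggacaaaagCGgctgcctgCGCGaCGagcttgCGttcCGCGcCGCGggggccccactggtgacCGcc
Lhx1: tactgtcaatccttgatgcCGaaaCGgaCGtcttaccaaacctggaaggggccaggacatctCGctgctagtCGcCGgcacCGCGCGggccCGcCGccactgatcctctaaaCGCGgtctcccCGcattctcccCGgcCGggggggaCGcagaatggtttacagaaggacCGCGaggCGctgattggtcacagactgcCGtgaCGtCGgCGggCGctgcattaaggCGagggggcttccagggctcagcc
Pax8: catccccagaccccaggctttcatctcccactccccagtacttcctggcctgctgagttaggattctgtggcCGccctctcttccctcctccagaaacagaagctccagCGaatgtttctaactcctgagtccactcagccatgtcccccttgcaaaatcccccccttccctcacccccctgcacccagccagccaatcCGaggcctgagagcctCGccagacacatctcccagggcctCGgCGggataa
Beside these counts, Elf5, with 2 and 8 CG, had 147 ± 33.1 TPM, and Emx1, with 30 CG, had 18.1 ± 6.18 TPM (SD, n = 8 libraries). Motifs were searched on both strands of the 250 bases. The GATA motif AGATAA, the GRHL motif AACCNGGTT and the homeodomain motif TAATTA were in 0 of the 12 windows, against 9.99%, 0.240% and 4.84% of all windows. The ETS motif GGAAGT was in 2, the printed window of Pax8 and the most upstream window of Pax2, against 19.7% of all windows.

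All 9 factors had a mean of at least 18.1 TPM, and the GATA pair led their order. Gata2, also known from blood progenitors and endothelium, had the highest level, with 338 ± 61.6 TPM (SD, n = 8), rank 437 of all 55291 symbols. Gata3, also known as the master factor of type 2 helper T cells, had 177 ± 18.6 TPM. Emx2 (151 ± 17.2 TPM), Elf5 (147 ± 33.1 TPM), Pax8 (144 ± 27.2 TPM) and Pax2 (114 ± 23.3 TPM) followed at ranks 1001 to 1382. Grhl2 had 41.2 ± 7.88 TPM, Lhx1 19.6 ± 4.58 TPM and Emx1 18.1 ± 6.18 TPM. The ranges over 8 libraries did not overlap between Gata2 and Gata3, between Pax2 and Grhl2 or between Grhl2 and Lhx1. Neighbours from Gata3 to Pax2 overlapped, as did Lhx1 and Emx1, where Lhx1 was the higher in 4 of 8 libraries.

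**Figure D1:**
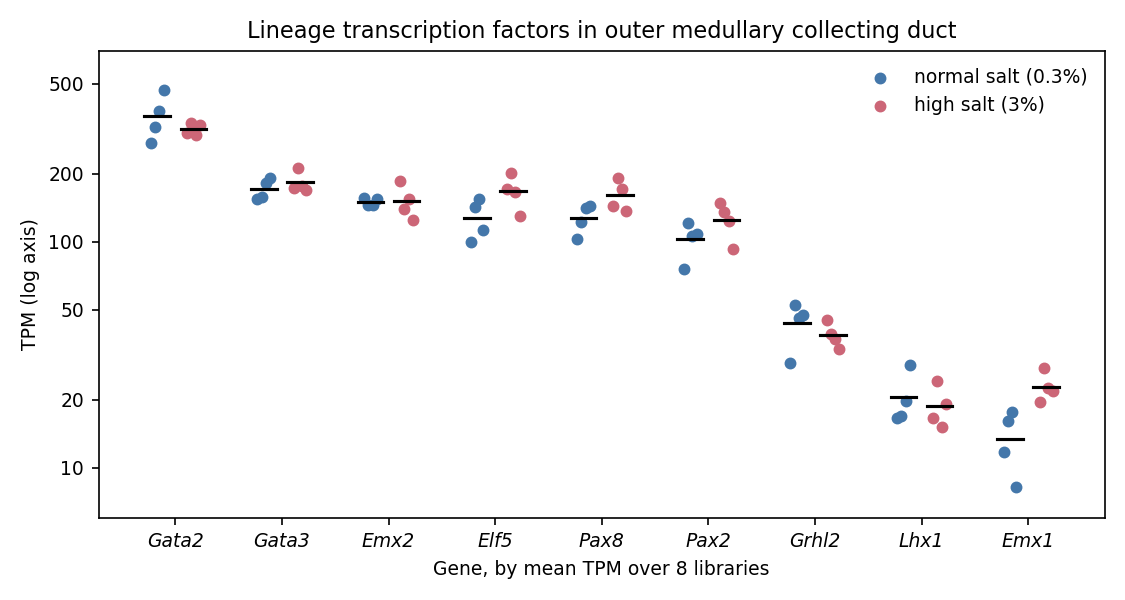
Level of each factor in TPM (log axis) in 4 normal-salt (blue) and 4 high-salt (red) libraries, genes ordered by their mean over 8 libraries; points are libraries and bars are means. Gata2 lies highest, and for Emx1 the 4 high-salt points (19.4 to 27.5 TPM) lie above the 4 normal-salt points (8.19 to 17.6 TPM).

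Within the families, the lineage factors were nearly the only members with a mean of at least 1 TPM for GATA, PAX, EMX and LIM homeodomain genes. Of 29 relatives outside the 9 genes, 23 had a mean below 1 TPM, and the highest value of any of these in any library was 0.652 TPM. Gata1, Pax1 and Isl2 were listed at 0 in all 8 libraries. In the GATA family only Gata2 and Gata3 of 6 genes reached a mean of 1 TPM, in the PAX family only Pax2 and Pax8 of 9, and among 12 LIM homeodomain genes only Lhx1. Among grainyhead genes, Grhl1 had 3.80 TPM beside the 41.2 TPM of Grhl2, and Grhl3 stayed at 0.134 TPM or less. The ELF group differed, since all 6 members reached that level: Ehf had 197 TPM and Elf3 138 TPM beside the 147 TPM of Elf5, and Elf1, Elf2 and Elf4 had 41.8, 32.7 and 4.49 TPM (Elf4 was named after its values were seen). By limma over all genes 0 of the 6 relatives above 1 TPM passed (adjusted p 0.494 for Elf4, the lowest, to 0.880 for Grhl1), and 0 had an unadjusted p under 0.05.

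**Figure D2:**
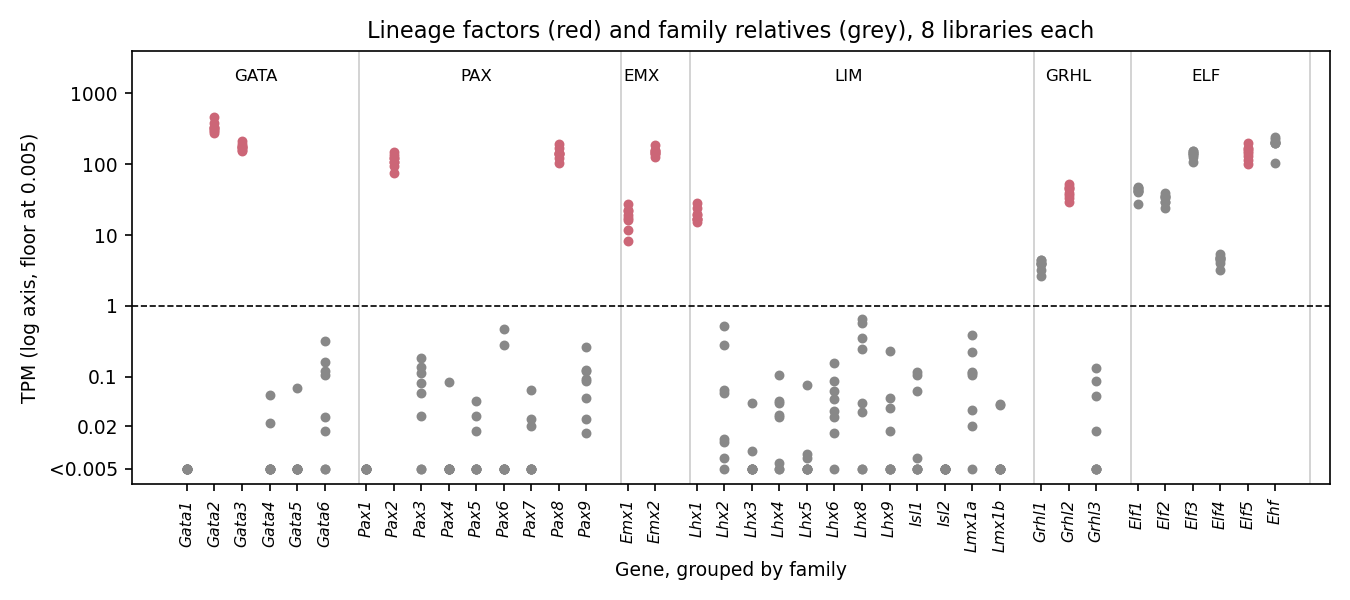
TPM (log axis, values under 0.005 drawn at the floor) of 38 family genes in all 8 libraries, the 9 lineage factors in red and 29 relatives in grey; the dashed line is 1 TPM. The red genes and 6 grey ones (Grhl1, Elf1, Elf2, Elf3, Elf4 and Ehf) have means above the line.

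Apart from Kit, markers of other cells that use Gata2 or Gata3 were low beside these genes. Of 7 mast cell and basophil markers, cells known for Gata2, 5 were listed at 0 in all libraries (Cpa3, Fcer1a, Ms4a2, Tpsb2 and Gata1), Mcpt4 reached 0.074 TPM at most, and Kit, which is not specific to these cells, had 178 ± 41.4 TPM (SD, n = 8). The 8 endothelial markers together summed to 53.1 to 85.3 TPM under normal salt and 48.9 to 75.4 TPM under high salt, where Gata2 alone had 274 to 469 and 295 to 334 TPM. Of 7 T lymphocyte markers, Cd3e, Cd3d and Cd3g had at most 0.524, 0.116 and 0.181 TPM in any library. Another of the 7 had a mean of at least 1 TPM, and the 7 summed to 4.30 to 7.58 TPM over the 8 libraries.

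The comparison of diets addressed whether a short high-salt diet changes the transcripts of this segment. Over 13401 genes, limma on log2(CPM + 1) with Benjamini-Hochberg adjustment called 11 (0.0821%) at an adjusted p under 0.05, and 0 of the 9 lineage factors. Leaving out normal-salt library 1 gave 50 calls, high-salt library 2 gave 5, and normal-salt library 6 and high-salt library 3 gave 1 each. Leaving out normal-salt library 3 or high-salt library 4 gave 0, where 1231 and 924 genes had an unadjusted limma p under 0.05. In each of these fits 0 lineage factors passed. Mean log2(CPM + 1) was higher under high salt for 5 factors and lower for 4, with a median log2 fold change of 0.09 beside 0.01 over all genes tested. An unadjusted p under 0.05 was reached by 2 of 9 (Emx1 and Pax8), against 10.3% of all genes. Both were higher under high salt, as were 5.95% of all genes at that p, while 4.37% were lower. The diets did not overlap for 1 of 9 (Emx1, higher under high salt), against 6.40% of all genes, of which 3.66% were higher under high salt.

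**Figure D3:**
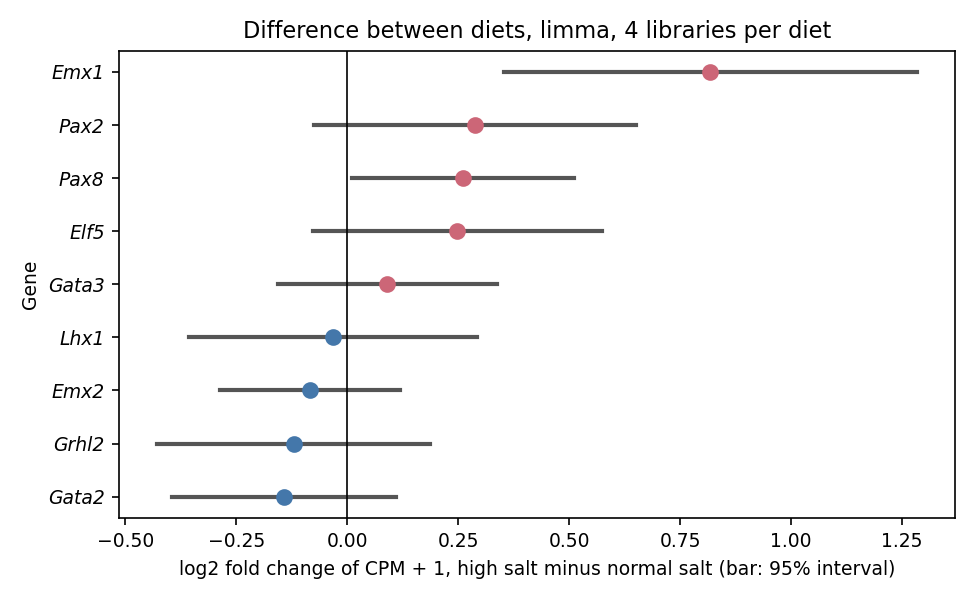
log2 fold change of CPM + 1, high salt minus normal salt, from limma with its 95% interval (bar) for each factor, 4 libraries per diet. The Emx1 estimate, 0.82, lies farthest from 0, and the intervals of Emx1 and Pax8 do not include 0 before adjustment over all genes.

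PAX2 and PAX8, which head the order of the duct programme, had higher means under high salt and did not pass. Pax2 was measured at 176, 271, 247 and 243 CPM in normal-salt libraries 1, 2, 3 and 6, and at 339, 309, 286 and 213 CPM in high-salt libraries 2, 3, 4 and 6. High-salt libraries 2, 3 and 4 lay above all normal-salt libraries, and high-salt library 6 lay among them. The log2 fold change of Pax2 was 0.29 (SE 0.16, 95% interval -0.07 to 0.65, limma adjusted p = 0.595). It was 0.16 without normal-salt library 1 and 0.42 without high-salt library 6 (limma adjusted p = 0.355). Pax8 had 143, 154, 173 and 160 CPM under normal salt and 175, 225, 200 and 161 CPM under high salt. Again high-salt library 6 was the one that overlapped the other diet. Its log2 fold change was 0.26 (SE 0.11, 95% interval 0.01 to 0.51, unadjusted p = 0.0429, limma adjusted p = 0.457).

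The library of each diet with the most thick ascending limb marker signal had the lowest Pax2, Pax8 and Grhl2 of that diet. All 10 markers had a lower mean log2(CPM + 1) under high salt and 0 passed limma (0 also at an unadjusted p under 0.05), with a median log2 fold change of -0.76. The mean log2(CPM + 1) of these 10 markers was 5.84, 4.93, 4.66 and 5.54 in normal-salt libraries 1, 2, 3 and 6 and 3.28, 3.51, 4.39 and 6.13 in high-salt libraries 2, 3, 4 and 6. The highest marker means were in normal-salt library 1 and high-salt library 6, where 3 of the 9 factors (Pax2, Pax8 and Grhl2) had their lowest CPM on both diets. The other 6 did not, and Gata2 had its highest high-salt value in library 6. The share of all genes tested that were lowest in both of these libraries was not counted, so 3 of 9 cannot be read as a trait of the factors. Below the top library the order was not kept throughout: Pax8 had 175 CPM in high-salt library 2, with the lowest marker mean, and 225 CPM in high-salt library 3. With the marker mean as a covariate, the log2 fold change of Pax2 was 0.07 (SE 0.12, limma adjusted p = 0.971), that of Pax8 0.16 (adjusted p = 0.856), that of Elf5 0.09 (adjusted p = 0.961) and that of Grhl2 -0.26 (adjusted p = 0.723). The log2 fold change of Emx1 with the covariate was 0.71 (SE 0.24, adjusted p = 0.417). Because all 10 markers had lower means under high salt, the covariate can also take up part of a difference between diets. Whether limb signal accounts for any of these values was not tested.

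**Figure D4:**
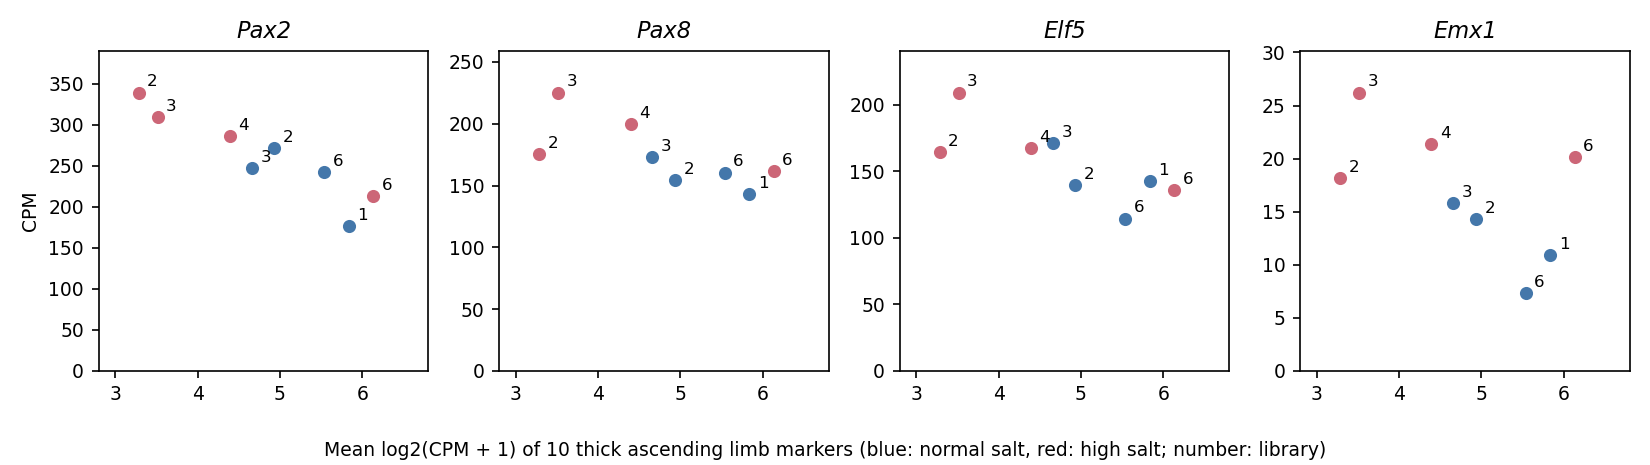
CPM of Pax2, Pax8, Elf5 and Emx1 (y axes from 0) against the mean log2(CPM + 1) of 10 thick ascending limb markers, for normal-salt (blue) and high-salt (red) libraries labelled by number. The highest Pax2 value, 339 CPM, is at the lowest marker mean, 3.28, and the red points of Emx1 lie above the blue ones at low and high marker means.

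The GATA factors, which head the level order, overlapped between the diets. Gata2 had 437, 466, 493 and 621 CPM in normal-salt libraries 1, 2, 3 and 6 and 456, 462, 426 and 469 CPM in high-salt libraries 2, 3, 4 and 6. Normal-salt library 6 was the highest of all 8, and the remaining 7 lay close together. The log2 fold change was -0.14 (SE 0.11, limma adjusted p = 0.731), and its 95% interval of 0.76 to 1.08-fold includes no difference. Without normal-salt library 6 it was -0.04. Gata3 had 239, 212, 266 and 278 CPM under normal salt and 260, 305, 252 and 239 CPM under high salt. High-salt library 3 lay above all normal-salt libraries. Normal-salt libraries 1 and 2 lay below all high-salt libraries, library 1 only just (238.6 CPM beside 239.1 CPM in high-salt library 6). The others overlapped (log2 fold change 0.09, SE 0.11, 95% interval -0.16 to 0.34, limma adjusted p = 0.831). Leaving out normal-salt library 2 or high-salt library 3 gave 0.02 each, normal-salt library 6 gave 0.15 and high-salt library 6 gave 0.14.

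Of the homeodomain factors, Emx1 had the farthest shift of the 9 genes, and Emx2 and Lhx1 had small ones. Emx1 had 10.9, 14.3, 15.8 and 7.32 CPM in normal-salt libraries 1, 2, 3 and 6 and 18.1, 26.2, 21.3 and 20.1 CPM in high-salt libraries 2, 3, 4 and 6. All 4 high-salt libraries lay above all 4 normal-salt libraries. Means were 12.1 ± 3.77 and 21.5 ± 3.44 CPM (SD, n = 4 each), with a log2 fold change of 0.82 (SE 0.21, 95% interval 0.35 to 1.28, unadjusted p = 0.00271), and the adjusted p by limma was 0.179, so Emx1 did not pass. Its log2 fold change was 0.62 to 0.96 over the 19 alternative fits, with adjusted p from 0.151 to 0.509. Of the distal convoluted and connecting tubule, the segments just upstream of the duct, 6 of 8 markers had a mean of at least 1 TPM. They summed to 110 to 294 TPM under normal salt and 101 to 427 TPM under high salt, and Slc12a3 and Pvalb, which define the distal convoluted tubule, stayed at or below 1.22 and 0.614 TPM. By mean log2(CPM + 1) 4 of the 6 tested markers were higher under high salt and 2 lower, and 0 passed limma. The lower ones were Klk1 (log2 fold change -0.85, limma adjusted p = 0.830) and Tmem52b (-0.65, 0.578). An unadjusted p under 0.05 was reached by 2, both higher. They were the sodium-calcium exchanger Slc8a1 (0.52, adjusted p = 0.213, diets not overlapping) and the calcium channel Trpv5 (1.20, 0.248). Among all genes tested 5.95% were higher at an unadjusted limma p under 0.05, and the diets did not overlap for 6.40%. The part of these markers in the Emx1 values was not tested.

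Emx2 had 199, 164, 181 and 183 CPM under normal salt and 191, 171, 166 and 158 CPM under high salt. Its log2 fold change was -0.08 (SE 0.09, 95% interval -0.29 to 0.12, limma adjusted p = 0.808), and its within-diet standard deviation, 0.11 on the log2 scale, was the smallest of the 9, at percentile 13.9 of all genes tested. The Emx2 log2 fold change was -0.01 in TPM, -0.04 without normal-salt library 1, -0.05 without high-salt library 6, and -0.13 on leaving out library 2 of either diet. Emx1, with a standard deviation of 0.35, had the widest, at percentile 85.9, and the median gene had 0.20. Lhx1 had 32.6, 35.8, 45.8 and 48.9 CPM under normal salt and 38.2, 46.2, 33.4 and 40.6 CPM under high salt (log2 fold change -0.03, SE 0.15, 95% interval -0.36 to 0.29, adjusted p = 0.964). The sign for Lhx1 turned when normal-salt library 3, normal-salt library 6 or high-salt library 4 was left out (0.03, 0.06 and 0.04).

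Grhl2 and Elf5, the epithelial factors, also overlapped between the diets. Grhl2 had 79.4, 126, 112 and 111 CPM in normal-salt libraries 1, 2, 3 and 6 and 106, 106, 91.3 and 86.3 CPM in high-salt libraries 2, 3, 4 and 6. Normal-salt library 1 was the lowest of all 8, and the log2 fold change was -0.12 (SE 0.14, 95% interval -0.43 to 0.19, limma adjusted p = 0.816). It was -0.26 without normal-salt library 1 (limma adjusted p = 0.272), -0.04 without normal-salt library 2 and -0.06 without high-salt library 6. Elf5 had 143, 140, 171 and 115 CPM under normal salt and 165, 209, 167 and 136 CPM under high salt. High-salt library 3 was the highest and normal-salt library 6 the lowest, with a log2 fold change of 0.25 (SE 0.15, 95% interval -0.08 to 0.57, limma adjusted p = 0.611). The Elf5 value was 0.15 without normal-salt library 6 and 0.14 without high-salt library 3. It was 0.34 without normal-salt library 3 and 0.35 without high-salt library 6. Over the 19 alternative fits it ran from 0.09 to 0.39, with limma adjusted p from 0.19 to 0.961. For the 8 factors other than Emx1 the 95% intervals of the fold change lay between 0.743-fold, the lower end for Grhl2, and 1.57-fold, the upper end for Pax2.

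Paralogous pairs were compared as the share of the first gene in the summed TPM of the pair. Gata2 made up 64.1, 67.2, 67.6 and 71.1% of Gata2 + Gata3 in normal-salt libraries 1, 2, 3 and 6 and 63.5, 61.1, 62.5 and 65.9% in high-salt libraries 2, 3, 4 and 6. The means were 67.5 ± 2.88% and 63.3 ± 2.02% (SD, n = 4 each), and an exact two-sided permutation test over 70 assignments gave p = 0.0571, or 0.129 adjusted over the 3 shares, where the smallest possible p is 0.0286. In CPM the difference was -3.65 percentage points (exact permutation p = 0.114). Emx1 made up 6.94, 9.98, 10.8 and 5.02% of Emx1 + Emx2 under normal salt and 9.52, 16.4, 12.8 and 14.8% under high salt, with means of 8.18 ± 2.67% and 13.4 ± 2.98% (exact permutation p = 0.0857, 0.129 adjusted over the 3 shares). High-salt library 2 overlapped the normal-salt range. In CPM in place of TPM the Emx shares did not overlap, at 6.27 ± 2.09% and 11.2 ± 1.89% (exact permutation p = 0.0286, the smallest possible).

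Pax2 made up 44.6 ± 3.42% of Pax2 + Pax8 under normal salt and 43.7 ± 4.87% under high salt (SD, n = 4 each, exact permutation p = 0.6). The sign of this difference turned in CPM, and also on leaving out library 2 of normal salt or library 6 of high salt. The shares were 42.5, 49.7, 43.0 and 43.0% in normal-salt libraries 1, 2, 3 and 6 and 50.9, 41.4, 41.9 and 40.4% in high-salt libraries 2, 3, 4 and 6. The libraries numbered 2 on each diet, at 49.7 and 50.9%, stood above the other 6, which lay between 40.4 and 43.0%.

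**Figure D5:**
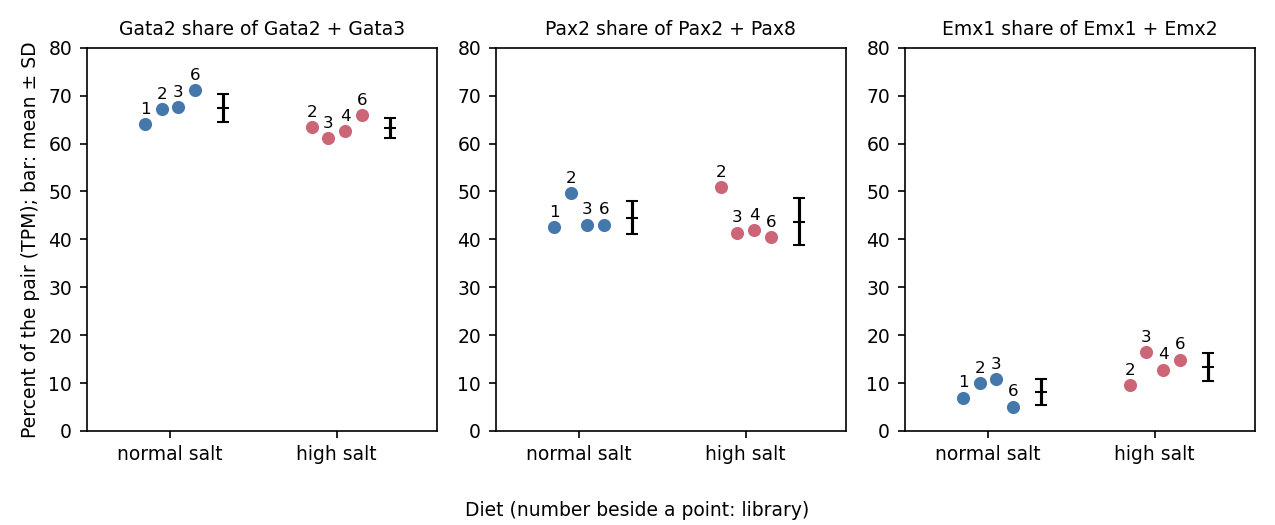
Share of Gata2, Pax2 and Emx1 in the summed TPM of its pair (percent, axis from 0) in 4 libraries per diet labelled by number, with mean ± SD beside them. The Pax2 share is highest in library 2 of each diet, and the Emx1 share has means of 8.18% and 13.4%.

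Other genes of the duct programme were read from lists. Of 23 tested transcription factors of the duct outside the 9, 1 was lower and 0 higher by limma over all genes, and their log2 fold changes had a median of 0.07. Among all genes tested 0.0298% were higher and 0.0522% lower. The one that fell was Id2, an inhibitor of helix-loop-helix factors (log2 fold change -0.95, limma adjusted p = 0.0201). Its call was lost in 5 of 19 alternatives, namely without a filter on low values (adjusted p = 0.0996), without normal-salt library 3 (0.0766) or 6 (0.0576), and without high-salt library 3 (0.0723) or 4 (0.0517). The next by p, which did not pass, were Tfap2b (0.32, adjusted p = 0.384), Klf5 (0.49, 0.443), Cux1 (0.18, 0.530) and Sox4 (0.36, 0.538). Tfcp2l1, which controls the mix of principal and intercalated cells, had 488 ± 87.6 TPM and Hoxb7 112 ± 14.1 TPM (SD, n = 8); both were named after their values were seen.

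Ureteric bud signalling genes had 13 of 23 members at a tested level, of which 0 passed limma over all genes and 0 had an unadjusted p under 0.05. Lowest in p were Npnt, the nephronectin of the duct's basement membrane (log2 fold change -0.26, adjusted p = 0.495), Wnt4 (0.58, 0.524), Slit2 (-0.53, 0.557) and Spry2 (0.17, 0.706). Ret, the receptor of the bud tip that GATA3 is known to activate in the embryo, had at most 0.145 TPM in any library, and its ligand Gdnf at most 0.036 TPM. Wnt9b, the duct signal to mesenchyme, had 102 ± 29.6 TPM (SD, n = 8). These 3 genes were named after their values were seen.

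Partner proteins of the factors had 17 of 18 members tested, and 0 passed limma over all genes, with 1 at an unadjusted p under 0.05, Ovol2 (log2 fold change -0.47, adjusted p = 0.382). The others lowest in p were Lmo4, a LIM-only protein (-0.27, adjusted p = 0.501), and the LDB1-binding proteins Ssbp4 (0.14, 0.659) and Ssbp2 (-0.25, 0.680).

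Of 19 genes known as GRHL2 targets in epithelia, all were tested and 0 passed limma over all genes. Their mean log2(CPM + 1) was higher under high salt for 14 and lower for 5. At an unadjusted p under 0.05, 2 were higher and 2 lower, beside 5.95% and 4.37% of all genes. These 4 were the keratin Krt19, at 7.89 ± 1.88 and 15.2 ± 3.76 CPM (SD, n = 4 each, log2 fold change 0.85, adjusted p = 0.159), the splicing factor Esrp1 (0.45, 0.237), the repressor Ovol2 named above, and Cdh1, E-cadherin (-0.31, 0.428). The median over the list was 0.05, beside 0.01 over all genes tested.

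A further list held 13 genes of water, sodium and urea handling (channels, transporters, receptors and a steroid enzyme). It was drawn up by name with earlier results known, and a link of its genes to GATA, ELF5 or PAX factors was not tested. Of these genes Scnn1a, which encodes ENaC alpha of the apical sodium channel, was lower by limma over all genes (log2 fold change -1.33, adjusted p = 0.0260), and 0 were higher. The Scnn1a call was lost in 6 of 19 alternatives by limma, namely without a filter on low values (adjusted p = 0.228), without normal-salt library 3 (0.0766) or 6 (0.0605), and without high-salt library 2 (0.0708), 3 (0.109) or 4 (0.0517). The others lowest in p were the potassium channel Kcnj1 (0.61, adjusted p = 0.0937), the water channel Aqp3 (0.68, 0.162), Scnn1b (-0.49, 0.281) and the water channel Aqp2 (0.67, 0.286), which did not pass. The median over the list was -0.03.

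The gene whose library-by-library course was most like that of each factor was sought among 10324 genes of at least 5 CPM, by the root mean square difference of log2(CPM + 1) centred on each gene's mean over 8 libraries. For Emx1 it was Ddit4l (difference 0.14, log2 fold change 0.86, limma adjusted p = 0.160), for Pax2 Bbs10 (0.09) and for Pax8 Tulp3 (0.08). For Gata2 it was Arhgef18 (0.03), for Gata3 Pabpc1 (0.05), for Emx2 Pck2 (0.05) and for Lhx1 Dennd11 (0.05). For Grhl2 it was Smg6 (0.06) and for Elf5 Ift46 (0.09). By comparison, the deviation of Emx1 from its own mean was 0.51 and that of Gata2 0.16.

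In GENCODE M21 on mm10 all 9 symbols match protein-coding genes. Gata2 lies on chromosome 6 from 88193891 to 88207032 (plus strand) and Emx1 on chromosome 6 from 85187438 to 85204462 (plus). Gata3 spans 9857078 to 9890034 (minus), Pax8 24420560 to 24475599 (minus) and Elf5 103411688 to 103450989 (plus) on chromosome 2. Pax2 spans 44756045 to 44837871 and Emx2 59458372 to 59465357 on the plus strand of chromosome 19. Lhx1 lies on chromosome 11 from 84518284 to 84525535 (minus) and Grhl2 on chromosome 15 from 37233036 to 37363569 (plus). Exons and isoforms of a gene share 1 value.

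Genes that overlap the factors were listed with a mean of at least 1 TPM at 3 loci. Gm16136, on the opposite strand over the start of Grhl2, had 90.8 TPM on average, above Grhl2 itself, with a log2 fold change of -0.13 (limma adjusted p = 0.763). 9230102O04Rik, which lies inside the Gata3 span on the same strand, had 55.2 TPM (0.13, adjusted p = 0.857), and 4930412O13Rik on the opposite strand had 5.93 TPM. Emx2os, the antisense transcript at the start of Emx2, had 3.40 TPM (0.03, adjusted p = 0.965). The other 7 overlapping genes had at most 0.791 TPM in any library. The kit keeps strand, but the strand setting of the counting is not given in the sources used here, so reads of Grhl2, Gata3 and Emx2 may be shared with these neighbours.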

How the data were processed

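RNA was measured in 8 libraries of outer medullary collecting duct, 4 per diet, each from 1 mouse, made with a stranded mRNA kit per the labels' protocols. The submitters' processing notes name FastQC, Trimmomatic and mm10. Which aligner, counter and annotation served is not given in the sources used here. Deposited by the authors were 1 table on a log2 scale of CPM with a shared floor of -5.29, and 1 table of TPM, each with 55291 symbols. The TPM values deposited by the authors summed to 999838 to 999898 per library. Columns name the diet but not a sample title, so they were used as replicates of a diet.

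The planned design had assumed linear CPM. From the log2 values, 2 to the power of each, less that of the floor, was scaled to 1 M per library. The commonest low value gave the worth of 1 count and so the depth; 85.1% to 85.9% of values below 50 CPM were whole counts within 0.005, so these are estimated counts and no count model was used. Genes with at least 1 CPM in at least 4 libraries were tested with limma 3.58.1 in R 4.3.3 (lmFit, eBayes with trend, two-sided) on log2(CPM + 1), which understates the change of low genes. p-values were adjusted over all 13401 genes. Shares were tested by exact permutation. Other plots and counts used Python 3.11.15.

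Members and lists were chosen with earlier results of these data known. Named were all 9 factors, called genes and up to 4 others of smallest p per list, up to 5 members per family of at least 1 TPM, up to 4 markers per list, and the most alike gene of each factor. On simulated data for this comparison (5 runs, 200 changed genes, 13436 genes tested on average) limma recovered 46.4% of changes at 1.5-fold, 84.8% at 2-fold and 96.2% at 3-fold. Of the simulated calls 5.48% were false. Changed genes were drawn among those with a mean of at least 5 CPM. Noise was drawn for each gene by itself, without variation that many genes of a library share, so these rates may be too high for the real libraries. Same-numbered libraries across diets had correlations of deviations from the diet means of 0.208, 0.287 and 0.00201. Those of libraries with different numbers ran from -0.275 to 0.296. These values do not settle whether a shared number links mice. Because the labels do not say what it stands for, the numbers were not taken as pairs in the main fit.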

Additional observations from a re-analysis of the deposited data

Results flagged for a closer look

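Among 26 groups of 4 libraries examined (the CPM of 9 factors, 3 pair shares and the median ratio of CPM to TPM, on each diet), 2 held a library set far apart from the other 3, where chance gives about 5% of groups. The Pax2 share of Pax2 + Pax8 was 49.7% in normal-salt library 2, with the other 3 between 42.5 and 43.0%. It was 50.9% in high-salt library 2, with the other 3 between 40.4 and 41.9%. In CPM the same libraries had 63.7 and 65.9%. The other 3 had 55.2 to 60.2% under normal salt and 56.9 to 58.9% under high salt. Shares in CPM were not among the 26 groups, so whether these libraries stand apart by the same rule in CPM was not tested. The labels do not say what a number shared between diets stands for.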

How the results depend on the processing

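Each factor was refitted under 19 alternatives, and 0 of the 9 passed limma in any of them, with 1 to 4 of the 9 at an unadjusted p under 0.05. The sign was kept in all 19 for 8 factors; for Lhx1 (main value -0.03) the fits that left out 1 library each gave -0.13 to 0.0601, with 0.0284 and 0.0445 among them. The count of 11 called genes became 0 of 30343 without a filter on low values (1933 at an unadjusted p under 0.05), 5 with TPM, 22 with robust moderation, 129 with array quality weights, 38 with a covariate for thick ascending limb markers, and 0 to 50 with 1 library left out; the cause was not tested. A replicate block on the column numbers shared by both diets (2, 3 and 6, 6 libraries) gave 37 calls, 0 of them a factor, and within-number differences of -5.1, -1.02 and 5 percentage points for the Gata2, Pax2 and Emx1 shares, where 3 pairs allow no p below 0.25. The difference in Pax2 share (-0.899 points) turned to 0.45 in CPM and ran from -3.31 to 0.806 with 1 library left out. The difference in Emx1 share (5.20 points) was 4.89 in CPM, with an exact permutation p of 0.0286, and ran from 4.15 to 6.49 with 1 library left out; the highest came without high-salt library 2, the only one to overlap the other diet, so that the diets then separate by construction (exact permutation p = 0.0286), and the other 7 gave exact permutation p from 0.0857 to 0.171. The difference in Gata2 share (-4.21 points) was -3.65 in CPM and ran from -5.34 to -3 with 1 library left out, with exact permutation p from 0.0571 to 0.143. A filter on low values gives no value for the shares, which use none. What the depth of 64.8 to 94.1 M limits was not tested.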

Other observations

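The ratio of CPM to TPM reflects the transcript length given to a gene, and it differed between libraries. Its median over 12132 genes was 1.63 in normal-salt library 1 and 1.34 to 1.40 in the other 7 libraries. Relative to that median, the ratio of Elf5 was 0.885 in normal-salt library 1 and 0.705 to 0.787 in the others, and that of Pax2 was 1.43 there and 1.65 to 1.67 in the others. Lhx1 varied most among the 9 factors, from 1.20 to 1.69, at percentile 85.0 of all these genes for the highest over the lowest value. In TPM the log2 fold change of Elf5 was 0.39, beside 0.25 in CPM, and it did not pass (limma adjusted p = 0.522).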
